A study of Mus musculus with 10 samples.

Results

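Synaptic vesicle and exocytosis genes were followed in bulk RNA-seq libraries of 2 brain tissues, cerebellum and cerebral cortex, from Snx14-deficient mice. The set was a fixed list of 40 genes, chosen by name, whose products sit on the synaptic vesicle or prepare, trigger or scaffold its fusion. All 40 were found among the 55536 genes counted. The list was made with earlier results of these data known. The study had named Doc2b and Sv2c as lower in KO cortex at this age. The mice were 1 year old. Controls 1 and 2 were labelled Het and control 3 WT, and the labels name all 3 as control mice; KO 1 and KO 2 were labelled Snx14 KO. Per the study's methods, the KO mice carry a frameshift deletion of a single base in both copies of Snx14 in every cell, the allele was made with Cas9 in C57BL/6J embryos, and it was the only allele that gave homozygous pups, so the KO mice represent 1 mutant line. The Het controls carry 1 such copy. Every one of the 5 mice gave both tissues, so there were 3 control and 2 KO libraries per tissue and 10 in all. Snx14 encodes a sorting nexin of the endoplasmic reticulum with a role in lipid handling.

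At a presynaptic terminal, vesicles are loaded with transmitter, tethered at the active zone by RIM and scaffold proteins, made ready for fusion by Munc13 proteins, and fused by the SNARE complex when calcium binds to synaptotagmins. Synapsins hold the reserve of vesicles, complexins clamp and assist the SNAREs, and SV2 proteins are transporter-like proteins of the vesicle membrane. Doc2 proteins are calcium sensors of higher affinity than the fast synaptotagmins and have been linked to spontaneous and delayed release. Most of these proteins come in families of paralogs, and brain regions and cell types are known to differ in the paralog they use.

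Levels are given as CPM, counts scaled to a common library size, on 1 scale for all 10 libraries, and comparisons between genes only as CPM per kilobase of exon (CPM per kb). Library totals lay between 16088310 and 22975355 gene counts, and the members had between 23 counts (Cplx3) and 54215 counts (Snap25) in a library. A gene was called at an adjusted p under 0.05 and an absolute log2 change over 0.5 by the quasi-likelihood test of edgeR. Snx14 was at 42.8, 39.9 and 73.3 CPM in control cerebellum and 15.5 and 17.4 in KO cerebellum, and at 34.4, 34.98 and 50.9 CPM in control cortex and 14.8 and 16.1 in KO cortex. It was below every control in both tissues, with a log2 change of -1.66 (SE 0.256, edgeR adjusted p = 0.0140) in cerebellum and -1.36 (SE 0.192, edgeR adjusted p = 0.754) in cortex, where DESeq2 gave an adjusted p of 1.42e-06. Cortex control 2 stood apart: the summed level of 13 cortical excitatory neuron genes was 4186 CPM there and 6441 to 7016 in the other cortex libraries, and that of 10 oligodendrocyte genes was 9111 against 4938 to 5377. It was the lowest of the 5 cortex libraries for 21 of the 40 members (52.5%, against 30.6% of all genes tested) and the highest for 11 (27.5%, against 32.2%). Control 2 and KO 2 were the mice with Ddx3y and almost no Xist, and so male. Because control 2 stood apart, the main cortex results are also given without it. No male control is then left beside the male KO 2, so genotype and sex are partly mixed in those results. Among the cerebellum libraries KO 1 stood apart in the summed level of 8 choroid plexus genes, at 63.4 CPM against 1209.9 to 3432.

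The members together held 1.23% ± 0.0445 (SD, n = 3) of the scaled counts in control cerebellum and 1.23% ± 0.0828 (n = 2) in KO cerebellum. In cortex the shares were 1.75% ± 0.172 and 1.75% ± 0.0476. Per kilobase, Snap25, a SNARE of the plasma membrane, was the highest member in both control tissues (356 ± 25.4 CPM per kb in cerebellum and 388 ± 29.4 in cortex), followed by Cplx1 and Cplx2, in this order in both tissues. The lowest member was Stx1a in cerebellum, at 0.573 ± 0.121 CPM per kb, and Syt9 in cortex, at 2.46 ± 0.294.

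The first question was which of these genes differ between KO and control in the cerebellum. Of 40 members, 1 was called, Doc2b, which was lower, while 1.55% of the 19447 genes tested were called (0.514% as higher and 1.04% as lower). DESeq2 called 2, Doc2b and Sv2c, against 2.22% of all genes, and edgeR with the replicate number as a block called Doc2b alone, against 0.931%. Over all 40 members the estimates centred on 0, where 22 lay above and 18 below it, the median was 0.0064, and 29 of 40 were within 0.2 on the log2 scale. The median absolute change was 0.0752, against 0.129 over all genes tested. Both KO cerebella lay outside the range of the controls for 8 members, or 20% against 30.0% of all genes. The 3 lower ones (7.5%, against 14.6%) were Doc2b, Sv2c and Unc13c, and the 5 higher ones (12.5%, against 15.5%) were Doc2a, Syt3, Syt11, Syn3 and Cplx1. With an unadjusted p under 0.05 there were 7 members (17.5%, against 13.4% of all genes).

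Doc2b (ENSMUSG00000020848.7, chromosome 11, 75768966 to 75796049, minus strand, GRCm38) was the only member of the calcium sensors called. It was at 93.2, 77.7 and 96.2 CPM in the control cerebella and at 51.5 and 50.5 in the KO cerebella. Both KO libraries were well below the lowest control and close to each other. The log2 change was -0.81 (SE 0.0965, edgeR adjusted p = 0.00493). Its paralog Doc2a (ENSMUSG00000052301.14, chromosome 7, 126847416 to 126852705, plus strand) was the minor Doc2 member per kilobase in this tissue, at 11.4, 10.6 and 9.57 CPM in controls and 12.4 and 14.1 in KO. Here the KO libraries were above all controls, but the log2 change of 0.32 (SE 0.137, edgeR adjusted p = 0.355) was not called. Of the exonic bases of Doc2a, 39.4% lie in another gene, mainly Ino80e, and counting without strand cannot tell the 2 apart. Rph3a, or rabphilin, a vesicle protein that binds Rab3 and calcium, was at 347 to 386 CPM in controls and 362 to 402 in KO.

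Among the proteins of the vesicle membrane, Sv2c (ENSMUSG00000051111.16, chromosome 13, 95954594 to 96132577, minus strand) stood apart from its paralogs in value. SV2C is the SV2 form known to be enriched in the basal ganglia. Sv2c was at 65.7, 44.2 and 54.5 CPM in control cerebella and at 24.6 and 34.4 in KO cerebella, with no overlap between the groups. The log2 change of -0.90 (SE 0.185, edgeR adjusted p = 0.0517) was larger than that of Doc2b, but the adjusted p was just above the threshold. DESeq2 called it (log2 change -0.89, adjusted p = 8.10e-05), and so did edgeR without KO 2 (adjusted p = 0.0405) or without control 2 (adjusted p = 0.0159, where 2.08% of all genes were called). Without KO 1 the log2 change was -0.67 (adjusted p = 0.220). Sv2a, the SV2 form of nearly all synapses, was at 467 to 529 CPM in controls and 493 to 549.9 in KO, a log2 change of 0.06 (SE 0.0873, edgeR adjusted p = 0.852). For Sv2b, found mainly in glutamatergic neurons, the ranges were 232 to 243 and 223 to 252 CPM, and the log2 change was -0.0034 (SE 0.0726, edgeR adjusted p = 0.992). Syp (synaptophysin) and Synpr (synaptoporin), the other vesicle membrane proteins, overlapped between the groups.

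Munc13 proteins prime vesicles, and all 3 members of this group had estimates below 0. Unc13d, a further gene of the family, was among the other presynaptic genes. Unc13c (ENSMUSG00000062151.13, chromosome 9, 73479422 to 73968966, minus strand), which encodes Munc13-3, the form known from the cerebellum, was at 260.1, 264 and 269 CPM in controls and 229 and 204 in KO. The control values lay close together and both KO libraries lay below them. The log2 change was -0.30 (SE 0.0719, edgeR adjusted p = 0.0907); DESeq2 gave an adjusted p of 0.00777, but the change is under the fold threshold. Unc13b was near 17.2 CPM and its groups overlapped (18.1, 13.6 and 20.05 CPM in controls, 11.2 and 14.1 in KO; log2 change -0.45, SE 0.185, edgeR adjusted p = 0.337). Unc13a, the main form of the forebrain, was at 157 to 172 CPM in controls and 154 to 165 in KO.

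Of the 9 synaptotagmins, 0 were called and their estimates lay between -0.25 and 0.28. Syt7, a slow calcium sensor, had 341, 280.1 and 349 CPM in controls and 289 and 258 in KO, a log2 change of -0.25 (SE 0.106, edgeR adjusted p = 0.360). KO 1 lay within the controls. Syt2, the fast sensor of the hindbrain and cerebellum, was at 369 to 419.9 CPM in controls and 372 to 379.9 in KO, and Syt1, the fast sensor of the forebrain, at 388 to 438 and 426 to 517. Among the synapsins, Syn3 was at 72.3, 56.5 and 77.95 CPM in controls and 78.9 and 100.1 in KO; KO 1 exceeded the highest control only slightly, and the log2 change was 0.37 (SE 0.142, edgeR adjusted p = 0.299). In Syn3, 14.1% of the exonic bases lie in other genes, mainly Timp3.

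Of the 31 members in cerebellum outside the Doc2 and SV2 genes and those with an unadjusted p under 0.05, 19 had estimates above and 12 below 0, and the smallest adjusted p was 0.376. They include all SNAREs, complexins, RIM proteins, both scaffolds Bsn (bassoon) and Pclo (piccolo), and both Rab3 GTPases. The 4 RIM genes lay between -0.09 and 0.0064 on the log2 scale. The highest estimate, 1.15, was that of Slc17a6, the vesicular glutamate transporter of thalamic and brainstem neurons and of climbing fibres, and it was named after its values were seen. Slc17a6 was at 6.31, 11.4 and 9.26 CPM in controls, at 7.20 in KO 1 and at 32.6 in KO 2. A single library set this value, and KO 1 lay within the controls.

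**Figure D1:**
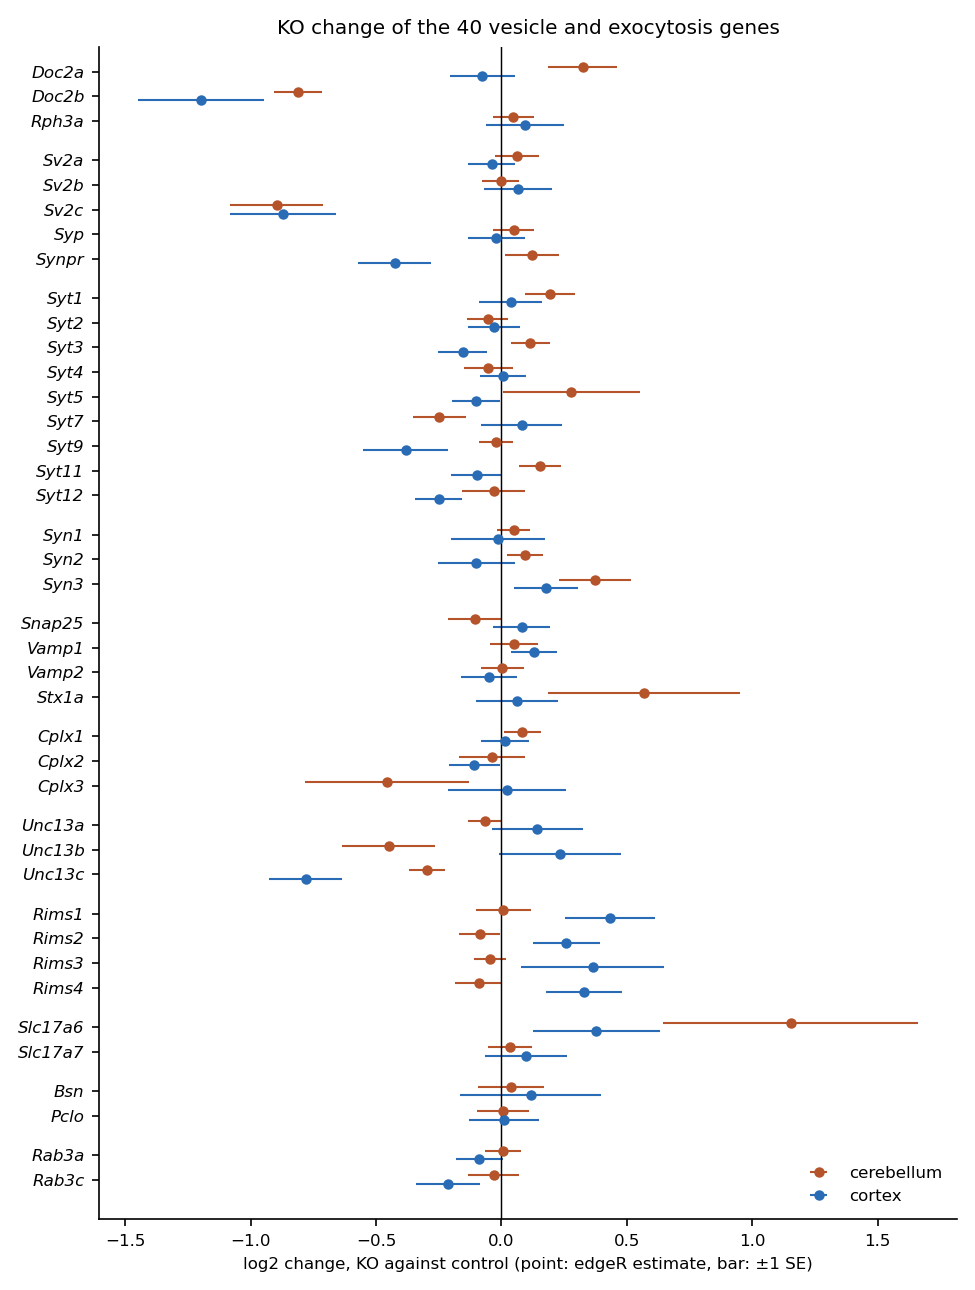
Log2 change of the 40 genes between KO and control (x axis) in cerebellum (orange) and cortex (blue), with genes grouped by role on the y axis; points are edgeR estimates from 2 KO and 3 control libraries per tissue and bars are 1 SE to each side. Doc2b, Sv2c and Unc13c lie to the left of 0 in both tissues, while most other genes lie within 0.2 of it, as 29 of 40 did in cerebellum and 27 of 40 in cortex.

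Markers of Purkinje cells (PCs) moved with these results in the cerebellum. The summed level of 18 PC genes was 13312, 11196 and 13064 CPM in controls and 6156 and 5969 in KO. All 18 had estimates below 0 (median -0.96) and 16 were called; Calb1 was at 1185, 1070.3 and 1184 CPM in controls and 488 and 489 in KO. In bulk tissue, fewer cells of a type and less RNA per cell cannot be told apart. The part of PCs in the lower Doc2b, Sv2c and Unc13c was not tested. The 13 granule cell genes summed to 5107 to 6166 CPM in controls and 5143 to 5918 in KO, and 14 general neuron genes to 3940 to 4406 and 4106 to 4336, so both overlapped. Astrocyte and microglia sums were above the controls in both KO cerebella (6097, 5748 and 6233 against 6915 and 6629 CPM for astrocytes, and 218, 234 and 248 against 329 and 333 for microglia), and their part was not tested either.

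In cortex, where 0 of 19202 genes were called (0.0%), 0 of 40 members were called, and 6 had an unadjusted p under 0.05 (15% of them, against 5.93% of all genes). DESeq2 called 3 members, Doc2b, Sv2c and Unc13c, all lower, and 0.255% of all genes. The lower level of Doc2b and Sv2c in KO cortex was already known from the study when the list was made. The median estimate was 0.0073 and the median absolute change 0.102, against 0.131 over all genes. The groups were separate, with no overlap, for 14 members (35%, against 24.7% of all genes). Lower in both KO cortices were 10 members (25%, against 14.2%), namely Doc2b, Sv2c, Syt3, Syt9, Syt11, Syt12, Cplx2, Unc13c, Synpr and Rab3a. Higher were Rims1, Rims2, Rims4 and Slc17a6 (10%, against 10.5%). Without control 2 the groups were separate for 28 members (70%, against 41.4% of all genes), 22 lower (55%, against 23.8%) and 6 higher (15%, against 17.6%). These counts, like the family shares and the ratio of Unc13c to Unc13a given without control 2, were chosen after the data were seen.

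Doc2b was at 28.96, 44.4 and 28.7 CPM in the control cortices and 17.4 and 11.96 in the KO cortices. Control 2 was the highest library and KO 2 the lowest, and the groups did not overlap. The log2 change was -1.20 (SE 0.250, edgeR adjusted p = 0.754), with a DESeq2 adjusted p of 0.00520. Doc2a, the more abundant Doc2 member in cortex per kilobase, was at 53.8, 48.2 and 62.4 CPM in controls and 47.3 and 55.7 in KO, and its log2 change was -0.08 (SE 0.128, edgeR adjusted p = 0.949). Without control 2 it was -0.16 (edgeR adjusted p = 0.585).

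Sv2c was likewise highest in control 2 and lowest in KO 2, with 55.9, 86.99 and 59.4 CPM in controls and 41.01 and 32.03 in KO. The log2 change was -0.87 (SE 0.212, edgeR adjusted p = 0.754) and the DESeq2 adjusted p 0.0333. Sv2a was at 477, 466 and 503 CPM in controls and 458 and 470.1 in KO (log2 change -0.04, SE 0.0942, edgeR adjusted p = 0.963), and Sv2b at 533, 411 and 534 CPM in controls and 495 and 526 in KO (log2 change 0.06, SE 0.135, edgeR adjusted p = 0.956). Both abundant SV2 genes overlapped between the groups, and without control 2 both KO libraries were below the other controls. Synpr, a vesicle protein of subsets of neurons, was at 153, 152 and 118 CPM in controls and 114 and 93.4 in KO, which do not overlap, with a log2 change of -0.43 (SE 0.147, edgeR adjusted p = 0.792). Without control 2 it was -0.37 (edgeR adjusted p = 0.185).

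Unc13c was at 55.4, 77.9 and 64.3 CPM in control cortices and 37.6 and 38.4 in KO cortices. Control 2 was again the highest library, and the KO values were close to each other. The log2 change was -0.78 (SE 0.147, edgeR adjusted p = 0.754), the DESeq2 adjusted p was 0.00704, and Unc13c had the smallest unadjusted p among the members. Unc13a was at 454, 303 and 464 CPM in controls and 453 and 436 in KO, and Unc13b at 68.8, 41.6 and 83.2 CPM in controls and 74.3 and 75.5 in KO. In both genes control 2 was the lowest library and the groups overlapped; without control 2 Unc13b still overlapped, and Unc13a was lower in both KO libraries.

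Rims1, which encodes the RIM1 scaffold of the active zone, was at 275, 180.4 and 275 CPM in controls and 323 and 327 in KO, a log2 change of 0.43 (SE 0.179, edgeR adjusted p = 0.829). The other RIM genes had estimates of 0.26 to 0.36, and all 4 were lowest in control 2. Without control 2 the log2 change of Rims1 was 0.26 (edgeR adjusted p = 0.0953). Syt12, a synaptotagmin that does not bind calcium, was at 52.3, 58.8 and 53.9 CPM in controls and 44.5 and 47.2 in KO (log2 change -0.25, SE 0.0943, edgeR adjusted p = 0.797). Without control 2 its log2 change was -0.20 (edgeR adjusted p = 0.359). In Syt12, 17.2% of the exonic bases lie in other genes. The other 31 members ranged from -0.38 to 0.38 on the log2 scale, 19 above and 12 below 0, with no adjusted p under 0.861.

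When control 2 was left out, edgeR called the same 3 genes that DESeq2 called with all libraries, against 0.517% of all genes. The controls were then all female while KO 2 was male, and the part of sex was not tested. The log2 changes were then -0.95 for Doc2b (edgeR adjusted p = 0.0109), -0.64 for Sv2c (adjusted p = 0.0154) and -0.64 for Unc13c (adjusted p = 0.00575). Each estimate was closer to 0 than with control 2.

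Markers of the striatum, a structure beneath the cortex, moved with these results. The summed level of 18 genes of striatal medium spiny neurons was 2815, 6222 and 2610.3 CPM in the control cortices and 1631 and 927 in the KO cortices. All 18 had estimates below 0 (median -1.78) and 0 were called. Drd1, the D1 dopamine receptor, was at 40.1, 103 and 45.6 CPM in controls and 25.2 and 13.8 in KO, and Adora2a, the adenosine receptor of the other class of these neurons, at 81.9, 199 and 59.3 CPM in controls and 34.05 and 10.9 in KO. Control 2 was the highest and KO 2 the lowest library, as for Doc2b and Sv2c, and without control 2 the controls stayed above both KO libraries in this sum. The part of these neurons in the cortex results was not tested. Of the other lists, 11 astrocyte genes summed to 5161, 3849 and 4899 CPM in controls and 5510.5 and 5820.1 in KO cortices (10 of 11 estimates above 0, 0 called), and 10 cortical interneuron genes to 1596, 1572 and 1563 and 1465 and 1499.8 (5 above and 5 below 0, 0 called). Their part was not tested. In cerebellum the striatal list was at 573 to 634 CPM in controls and 652 and 667 in KO, with Drd1 at 0.11 to 0.41 CPM and Gpr6, Isl1 and Ido1 at 0 in some libraries, so there its sum was not lower in KO. The PC list was at 2189, 2279 and 2189 CPM in control cortices and 1835 and 1848 in KO cortices; of its defining genes, Ppp1r17 was at 0.24 to 0.64 CPM and Skor2 at 0 in every cortex library.

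**Figure D2:**
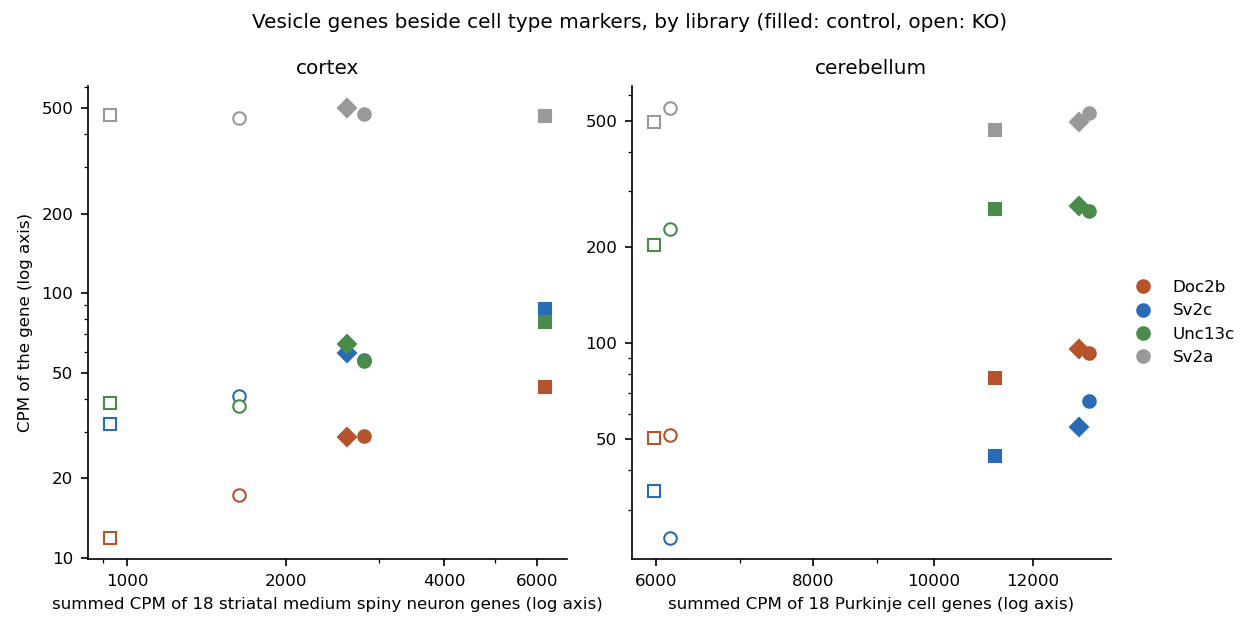
CPM of Doc2b, Sv2c, Unc13c and, for reference, Sv2a in each library (y axis, log scale) against the summed CPM of 18 striatal genes in the cortex libraries (left) and of 18 Purkinje cell genes in the cerebellum libraries (right; x axes, log scale); filled symbols are controls, open symbols KO, and circle, square and diamond are mice 1, 2 and 3. In cortex the 3 lower genes are highest in control 2 (6222 CPM of striatal genes) and lowest in the KO libraries (1631 and 927), while Sv2a lies between 458 and 503 CPM in all 5.

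Doc2b, Sv2c and Unc13c were the members below every control in both tissues, 3 of 40, against 2.57% of all genes tested in both. Above every control in both were 0 members, against 2.4%. Doc2b and Sv2c were on the list with their lower level in KO cortex known from the study. The 3 of 40 can therefore not be read as an excess over 2.57%. The control mice are the same in both tissues. The log2 estimate of Doc2b was -0.81 in cerebellum and -1.20 in cortex, that of Sv2c -0.90 and -0.87, and that of Unc13c -0.30 and -0.78, of which only that of Doc2b in cerebellum was called by edgeR.

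The plot of these genes by library shows them beside their paralogs, which were not below all controls in both tissues.

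**Figure D3:**
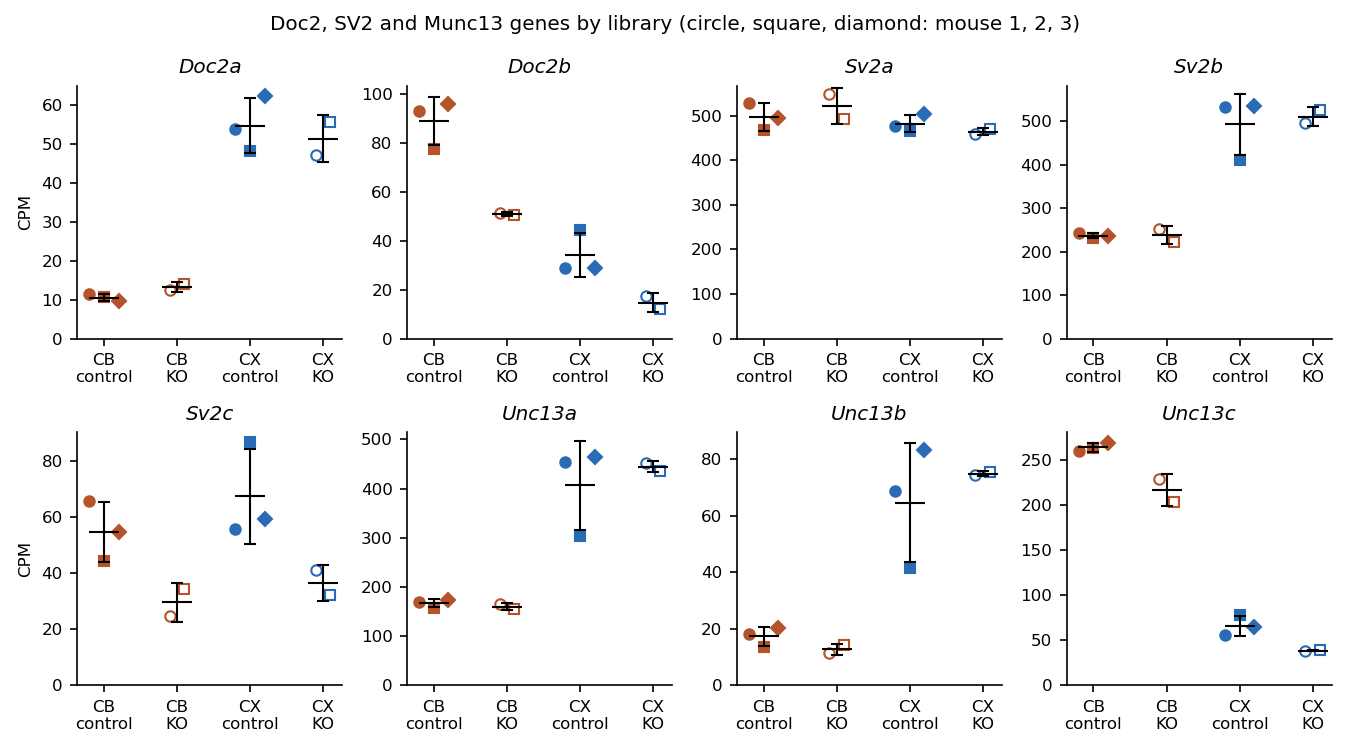
CPM of the Doc2, SV2 and Munc13 genes (y axis, from 0, 1 panel per gene) in control (filled) and KO (open) libraries of cerebellum (CB, orange) and cortex (CX, blue); circle, square and diamond are mice 1, 2 and 3, and black bars are the mean and SD (n = 3 controls, 2 KO). Doc2b, Sv2c and Unc13c are below all controls in both KO groups, and cortex control 2 (square) is the highest cortex library for these 3 and the lowest for Sv2b, Unc13a and Unc13b.

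The question whether the KO effect differs between the tissues was asked directly, as the KO effect in cerebellum minus that in cortex. It differed for 0 of 40 members, against 0.102% of all genes; DESeq2 also called 0 members, against 1.07%, as did edgeR with the animal as a block, against 0.621%, and 6 had an unadjusted p under 0.05 (15%, against 8.28% of all genes). For Doc2b the difference was 0.41 (SE 0.282, edgeR adjusted p = 0.793) and for Sv2c -0.0048 (SE 0.317, edgeR adjusted p = 1.000). For Unc13c, whose estimate in cortex was farther from 0, it was 0.51 (SE 0.169, edgeR adjusted p = 0.382). It was 0.42 (SE 0.188, edgeR adjusted p = 0.594) for Doc2a, 0.12 (SE 0.124, edgeR adjusted p = 0.892) for Sv2a and -0.05 (SE 0.164, edgeR adjusted p = 0.982) for Sv2b. Synpr had the highest difference among those 6, at 0.57 (SE 0.199, edgeR adjusted p = 0.410), with KO values inside the control range in cerebellum (83.4, 103 and 79.1 CPM in controls, 98.6 and 95.3 in KO) and below it in cortex. For Syt9, a fast calcium sensor, the difference was 0.38 (SE 0.154, edgeR adjusted p = 0.517); the gene was at 52.8 to 56.7 CPM in all cerebellum libraries, at 10.01, 10.8 and 8.54 in control cortices and at 7.08 and 7.85 in KO cortices. Syt3 and Syt11 had differences of 0.29 (SE 0.117, edgeR adjusted p = 0.514) and 0.28 (SE 0.122, edgeR adjusted p = 0.594). Without control 2 the edgeR differences were 0.04 for Doc2b (adjusted p = 0.972), -0.40 for Sv2c (adjusted p = 0.563), 0.33 for Unc13c (adjusted p = 0.268), 0.48 for Doc2a (adjusted p = 0.315) and 0.60 for Synpr (adjusted p = 0.149), and 0 members were called. A p that misses the threshold does not show that the KO effects are alike in the 2 tissues.

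Relative to its own paralog, Doc2b was lower in KO in both tissues. The log2 ratio of Doc2b to Doc2a (in CPM per kb) was 2.39, 2.23 and 2.69 in control cerebella and 1.41 and 1.20 in KO cerebella. The means differed by -1.13. In cortex it was -1.53, -0.76 and -1.75 in controls and -2.08 and -2.86 in KO, a difference of -1.12. Without control 2 the cortex difference was -0.83, and over libraries left out in turn it ranged from -1.51 to -0.74, against -1.24 to -1.003 in cerebellum. Whether the tissues differ in this ratio was not tested. Both KO values were below all controls in either tissue. Doc2a itself was above the controls in KO cerebella and overlapped in cortex. Of its exonic bases 39.4% lie in another gene, mainly Ino80e. The ratio and the share of Doc2b carry this limit.

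The log2 ratio of Sv2c to Sv2a, also in CPM per kb, was -4.07, -4.47 and -4.25 in control and -5.55 and -4.91 in KO cerebella. In cortex it was -4.16, -3.49 and -4.15 in control and -4.55 and -4.94 in KO libraries. The means differed by -0.96 and -0.81. Against Sv2b the differences were -0.90 in cerebellum and -0.93 in cortex. Without control 2 the cortex differences were -0.59 against Sv2a and -0.60 against Sv2b. In cerebellum the size depended on the KO mouse, since without KO 1 the difference to Sv2a was -0.64 and without KO 2 it was -1.29; KO 1 is the library with few choroid plexus transcripts, whose part was not tested. For Unc13c against Unc13a the differences were -0.23 in cerebellum and -0.93 in cortex, the latter -0.61 without control 2. In each of these 8 comparisons both KO libraries were below the 3 controls. Doc2b, Sv2c and Unc13c were themselves below every control in both tissues, so this follows in part from their choice. Only the ratios of Doc2b and Sv2c were planned. A share over other gene pairs was not computed, so this count is no added support.

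As a share of its family per kilobase, Doc2b made up 84.3% ± 2.11 (SD, n = 3) of Doc2 transcripts in control cerebellum and 71.2% ± 2.12 (n = 2) in KO. In cortex the shares were 28.6% ± 7.59 and 15.6% ± 4.93. Sv2c was a minor form in both tissues, with 3.98% ± 0.545 of SV2 transcripts in control and 2.14% ± 0.654 in KO cerebellum, and 4.15% ± 1.31 and 2.29% ± 0.449 in cortex. Unc13c held 68.3% ± 1.21 of Unc13a, Unc13b and Unc13c transcripts in control cerebellum and 65.1% ± 0.977 in KO. In cortex its shares were 18.3% ± 6.35 and 10.1% ± 0.345. Without control 2 the control shares in cortex were 24.3% for Doc2b, 3.39% for Sv2c and 14.6% for Unc13c, and both KO libraries were below the other controls for each. Over all 12 families, KO and control shares did not overlap for 10 of 31 shares in cerebellum and 11 of 31 in cortex. For levels of single genes, groups did not overlap for 30% of all genes in cerebellum and 24.7% in cortex. Shares within a family depend on each other, since they sum to the whole, so in a family of 2 genes both count. These counts are therefore not a result about the families.

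**Figure D4:**
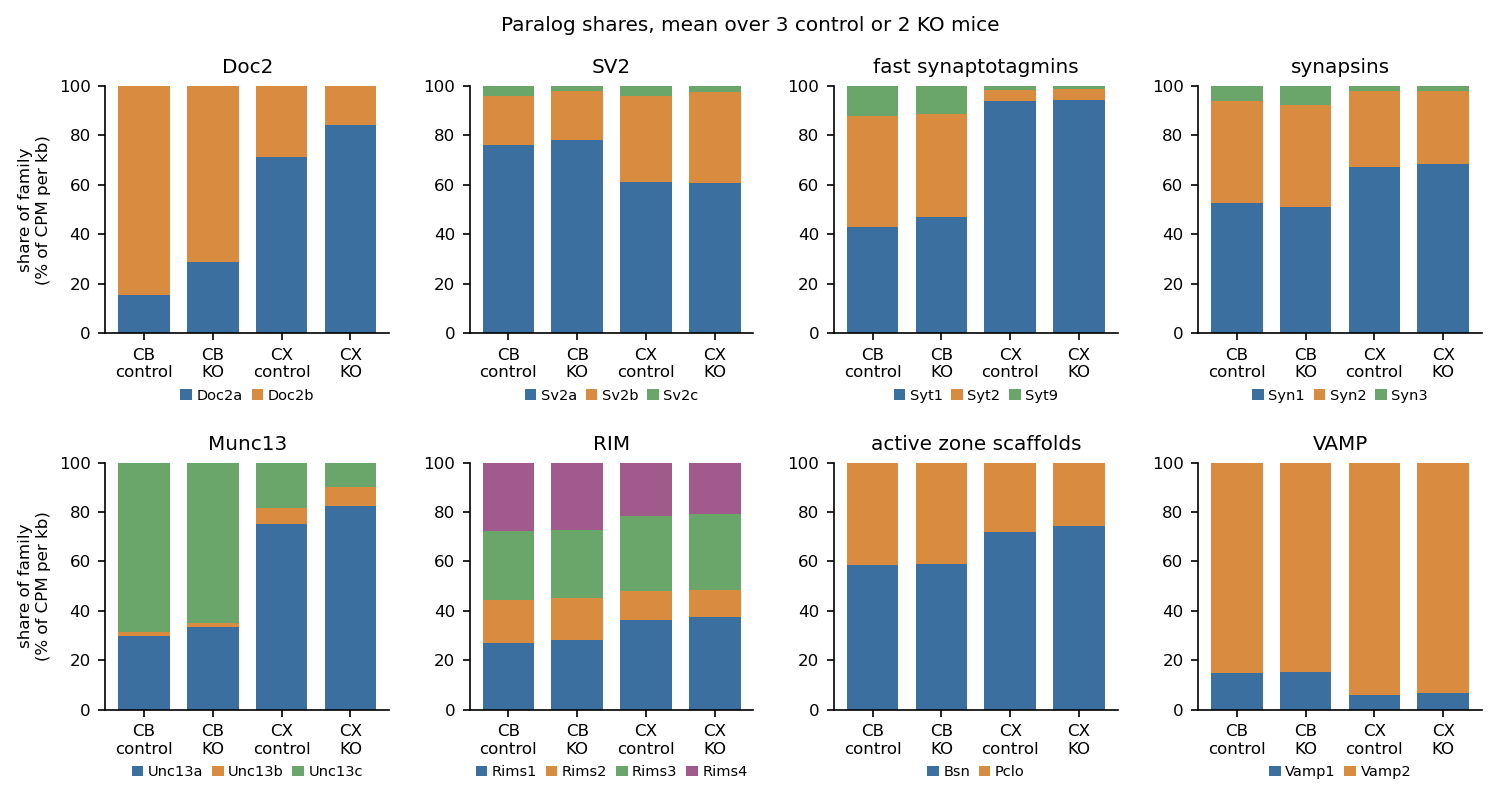
Share of each paralog in the summed CPM per kb of its family (y axis, percent, stacked to the whole) in control and KO cerebellum (CB) and cortex (CX), as means over 3 control or 2 KO mice, for 8 of the 12 families. Doc2b leads in cerebellum and Doc2a in cortex, Unc13c in cerebellum and Unc13a in cortex, and the KO bars have less Doc2b, Sv2c and Unc13c than the control bars beside them.

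The promoters of Sv2c and Unc13c, 2 of the genes below all controls in both tissues, are shown beside those of their paralogs Sv2a and Unc13a, which were not. Each is 300 bases from RefSeq on GRCm38.p6, from 250 before to 50 after a start site, 5′ to 3′ on the strand of the gene. Capitals mark GGGCGG or its reverse complement CCGCCC, the GC box. Sv2a is at chr3:96180977-96181276 (plus strand), Sv2c at chr13:96132528-96132827 (minus), Unc13a at chr8:71671708-71672007 (minus) and Unc13c at chr9:73968988-73969287 (minus).
Sv2a: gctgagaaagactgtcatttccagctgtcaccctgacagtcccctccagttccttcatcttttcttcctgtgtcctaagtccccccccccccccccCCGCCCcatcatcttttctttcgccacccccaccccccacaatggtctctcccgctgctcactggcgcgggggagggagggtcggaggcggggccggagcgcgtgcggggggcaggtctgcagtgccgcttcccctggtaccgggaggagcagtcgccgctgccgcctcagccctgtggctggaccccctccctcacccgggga
Sv2c: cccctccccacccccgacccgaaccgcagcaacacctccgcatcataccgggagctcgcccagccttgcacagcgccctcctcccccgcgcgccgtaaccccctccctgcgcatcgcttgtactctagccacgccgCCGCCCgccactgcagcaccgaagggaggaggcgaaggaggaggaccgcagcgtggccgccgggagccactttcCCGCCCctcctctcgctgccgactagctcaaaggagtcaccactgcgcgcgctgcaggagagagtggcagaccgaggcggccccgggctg
Unc13a: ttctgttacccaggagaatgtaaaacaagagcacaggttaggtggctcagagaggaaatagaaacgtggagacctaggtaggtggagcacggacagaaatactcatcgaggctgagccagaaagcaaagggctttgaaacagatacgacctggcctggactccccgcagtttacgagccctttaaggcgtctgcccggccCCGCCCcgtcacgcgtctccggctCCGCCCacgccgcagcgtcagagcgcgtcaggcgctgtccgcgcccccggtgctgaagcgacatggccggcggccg
Unc13c: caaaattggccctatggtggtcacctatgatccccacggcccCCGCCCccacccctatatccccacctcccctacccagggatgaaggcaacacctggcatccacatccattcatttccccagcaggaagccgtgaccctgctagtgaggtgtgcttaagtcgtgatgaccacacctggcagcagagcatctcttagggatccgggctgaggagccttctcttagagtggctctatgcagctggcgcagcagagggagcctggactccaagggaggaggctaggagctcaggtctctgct
The GC box occurred 1 time in Sv2a, 2 times in Sv2c, 2 times in Unc13a and 1 time in Unc13c, and 35.7% of 32851 promoters of this length held it on either strand. The TATA motif TATAAA, found in 13.6% of promoters, and the cAMP response element TGACGTCA, found in 1.79%, were searched on both strands and occurred 0 times in the 4. CG dinucleotides numbered 17 in Sv2a, 32 in Sv2c, 27 in Unc13a and 6 in Unc13c, with a median of 7 over all promoters. In these pairs the letters did not separate Sv2c and Unc13c from Sv2a and Unc13a. No promoter of Doc2b was available, and the paralogs Sv2b and Unc13b were not compared.

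Cerebellum and cortex of the same mice differed in most of these genes. In the controls 26 of 40 members (65%) were called, against 40.9% of all genes; 9 were higher in cerebellum (22.5%, against 19.2%) and 17 lower (42.5%, against 21.8%). The median log2 change was -0.44, against 0.016 over all genes. Control libraries of the tissues did not overlap for 32 members (80%, against 60.7% of all genes), 10 higher (25%, against 30.5%) and 22 lower (55%, against 30.2%), and 35 had an unadjusted p under 0.05 (87.5%, against 60.5%). In 10 members the ratio was above 0 in each of the 5 mice, in 22 it was below 0 in each, and in 8 it was mixed. The share over all genes was not computed for these counts, so they do not set the members apart from other genes. In the KO mice, which are other animals, 23 members were called, against 35.6% of all genes, 8 higher (17.4% of all genes) and 15 lower (18.2%). DESeq2 called 26 in the controls, against 39.4%, and edgeR with the animal as a block 27, against 41.8%. Log2 changes below are cerebellum against cortex in controls; SE and adjusted p are from edgeR.

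**Figure D5:**
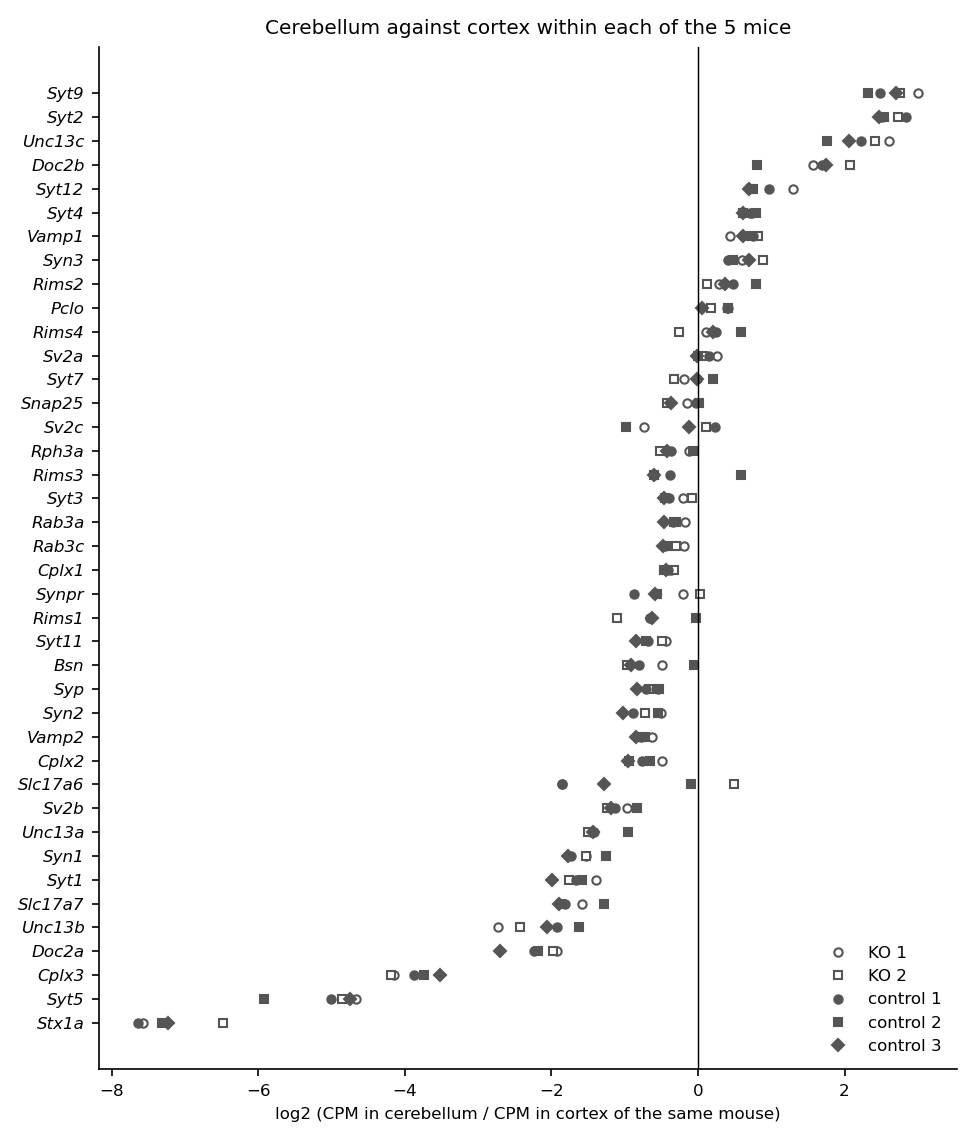
Log2 ratio of CPM in cerebellum to CPM in cortex of the same mouse (x axis) for the 40 genes (y axis, ordered by their mean), with filled symbols for the 3 control mice and open symbols for the 2 KO mice. Syt9, Syt2, Unc13c and Doc2b lie to the right in all 5 mice and Stx1a, Syt5 and Cplx3 far to the left.

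Among calcium sensors the tissues used different forms. Syt2 was at 419.9, 369 and 377 CPM in control cerebella and 58.6, 63.2 and 67.8 in control cortices (log2 change 2.62, SE 0.0873, edgeR adjusted p = 1.67e-09). Syt9 was at 56.02, 54.4 and 55.6 CPM in cerebella and 10.01, 10.8 and 8.54 in cortices (2.49, SE 0.0983, edgeR adjusted p = 5.44e-09). Syt1 had the opposite pattern, with 438, 404 and 388 CPM in cerebella and 1382, 1213 and 1541 in cortices (-1.75, SE 0.111, edgeR adjusted p = 2.08e-07). As a share of these 3 fast sensors per kilobase, Syt2 made up 44.6% ± 0.796 in control cerebellum and 4.73% ± 0.491 in control cortex, and Syt1 43.2% ± 0.760 and 93.9% ± 0.765. In cerebellum Syt1 and Syt2 had similar shares, and without the length correction Syt1 was ahead.

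Syt5 was far lower in cerebellum, with 5.19, 2.92 and 5.85 CPM in control cerebella and 167, 177 and 157 in cortices (-5.17, SE 0.179, edgeR adjusted p = 2.14e-09). Syt4, which does not bind calcium in the usual way and sits on dense-core vesicles, was higher in cerebellum (0.71, SE 0.0857, edgeR adjusted p = 3.77e-05), and so was Syt12 (0.80, SE 0.111, edgeR adjusted p = 0.000105). Syt11 was lower (-0.74, SE 0.0779, edgeR adjusted p = 1.17e-05). In Syt4, 14.5% of the exonic bases lie in another gene. The estimate of Syt3 was lower by less than the fold threshold (37.98 to 41.5 against 50.1 to 56.8 CPM), and Syt7 overlapped between the tissues. Rph3a overlapped as well, at 386, 347 and 369.9 CPM in cerebella and 500.4, 365 and 495 in cortices.

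Doc2b was at 77.7 to 96.2 CPM in control cerebella and 28.7 to 44.4 in cortices (1.38, SE 0.174, edgeR adjusted p = 5.04e-05), and Doc2a at 9.57 to 11.4 and 48.2 to 62.4 (-2.38, SE 0.123, edgeR adjusted p = 4.07e-08). Of Doc2a and Doc2b, each was thus the main form in 1 tissue. In cerebellum Doc2b was at 20.4 ± 2.28 and Doc2a at 3.76 ± 0.329 CPM per kb (SD, n = 3), and in cortex they were at 7.81 ± 2.06 and 19.6 ± 2.54. In the KO mice the order was the same, with 11.7 ± 0.164 and 4.73 ± 0.422 CPM per kb in cerebellum and 3.36 ± 0.875 and 18.4 ± 2.13 in cortex (n = 2).

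Among the Munc13 members, the main gene also differed between the tissues. Unc13c was at 260.1 to 269 CPM in control cerebella and 55.4 to 77.9 in cortices (2.00, SE 0.109, edgeR adjusted p = 6.08e-08). Unc13a was at 157 to 172 and 303 to 464 CPM (-1.29, SE 0.139, edgeR adjusted p = 1.49e-05), and Unc13b at 13.6 to 20.05 and 41.6 to 83.2 (-1.90, SE 0.228, edgeR adjusted p = 3.38e-05). In the RIM family, Rims2 was higher in cerebellum (0.53, SE 0.110, edgeR adjusted p = 0.00168), but not past the fold threshold without control 2 (log2 change 0.42) and not in KO mice (0.21). Rims1, Rims3 and Rims4 were not called in the controls. Rims1, at 175, 177 and 178 CPM in cerebella and 275, 180.4 and 275 in cortices, was called as lower without control 2 and in KO mice (-0.86, SE 0.188, edgeR adjusted p = 0.00337). Of 12 families, 4 had a different leading form in the 2 tissues, namely Doc2, the fast synaptotagmins, Munc13 and RIM. Without the length correction it differed in 6, namely Doc2, SV2, synapsins, Munc13, RIM and the scaffolds. In the RIM family the leading cerebellar forms Rims4, Rims3 and Rims1 had shares of 27.9% ± 1.22, 27.5% ± 0.908 and 27.1% ± 0.777, which do not differ beyond their spread.

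In the SNARE group, Stx1a had the largest tissue difference of the members. It encodes syntaxin-1A of the plasma membrane and was at 1.45, 1.25 and 1.88 CPM in control cerebella and 289, 199 and 283 in control cortices (-7.40, SE 0.260, edgeR adjusted p = 2.43e-09). Vamp1 (synaptobrevin-1) was higher in cerebellum (253 to 259.8 against 151 to 169.8 CPM; 0.70, SE 0.0858, edgeR adjusted p = 4.31e-05). Vamp2 (synaptobrevin-2) was lower (511 to 580.2 against 846 to 996 CPM; -0.78, SE 0.0902, edgeR adjusted p = 2.46e-05), yet made up 84.97% ± 0.965 of the pair per kilobase in cerebellum and 94.03% ± 0.565 in cortex. Snap25 was at 2219.7 to 2533 CPM in control cerebella and 2468 to 2856 in cortices, which overlap.

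All 3 complexins had estimates below 0. Cplx3, a form of retina and of deep cortical neurons, was at 1.31, 2.41 and 1.68 CPM in control cerebella and 19.1, 31.99 and 19.3 in cortices (-3.70, SE 0.259, edgeR adjusted p = 4.46e-07). Cplx2 was at 785 to 918 and 1441 to 1556 CPM (-0.79, SE 0.112, edgeR adjusted p = 0.000123), and Cplx1 was lower by less than the fold threshold, at 548 to 552 and 731 to 756 CPM.

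Synapsins 1 and 2 were lower in cerebellum, Syn1 at 148 to 165 against 351 to 549 CPM (-1.61, SE 0.146, edgeR adjusted p = 3.61e-06) and Syn2 at 251 to 277 against 371 to 512 (-0.84, SE 0.119, edgeR adjusted p = 0.000124). Syn3 was higher (0.53, SE 0.140, edgeR adjusted p = 0.00743), a call lost without control 3 (adjusted p = 0.0734). On the vesicle membrane, Sv2b was at 232 to 243 CPM in control cerebella and 411 to 534 in cortices (-1.06, SE 0.105, edgeR adjusted p = 7.64e-06), Syp at 772 to 806 and 1142 to 1373 (-0.69, SE 0.0870, edgeR adjusted p = 4.80e-05), and Synpr at 79.1 to 103 and 118 to 153 (-0.67, SE 0.126, edgeR adjusted p = 0.000939). In Syp, 16.8% of the exonic bases lie in other genes, mainly Gm14703. For Synpr the tissue difference was -0.10 in KO mice (edgeR adjusted p = 0.635). Sv2a, at 466 to 529 CPM over both control tissues, and Sv2c, at 44.2 to 86.99, overlapped between the tissues.

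Slc17a7, or VGLUT1, the glutamate transporter of cortical and granule cell terminals, was at 395, 392 and 349.7 CPM in control cerebella and 1388, 950.3 and 1304 in cortices (-1.68, SE 0.135, edgeR adjusted p = 1.40e-06). Slc17a6 was at 6.31, 11.4 and 9.26 CPM in cerebella and 22.7, 12.3 and 22.6 in cortices and was not called, but edgeR called it as lower in cerebellum in a fit with a term for each animal (-1.07, adjusted p = 0.0343) and without control 2, KO 1 or KO 2. Slc17a7 made up 97.7% ± 0.666 of the pair with Slc17a6 per kilobase in cerebellum and 98.5% ± 0.226 in cortex. Of the scaffolds, Bsn was at 360.2, 298 and 341 CPM in cerebella and 631, 308 and 639 in cortices (-0.66, SE 0.232, edgeR adjusted p = 0.0315); the cortex value of control 2 lay within the cerebellar range, and the call was lost without control 1 (adjusted p = 0.150) or control 3 (adjusted p = 0.189). Pclo overlapped between the tissues. Rab3a and Rab3c, GTPases of the vesicle, were lower in cerebellum by less than the fold threshold.

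The other genes of the presynaptic machinery were examined as a list of 75, of which 71 were tested in cerebellum and 73 in cortex. They include further synaptotagmins, syntaxins, transmitter transporters, endocytosis proteins and tethering factors. By edgeR 0 of 71 were called in KO cerebellum and 0 of 73 in KO cortex, against 1.55% and 0.0% of all genes. An unadjusted p under 0.05 was found for 8 (11.3%, against 13.4%) and 6 (8.22%, against 5.93%), with medians of 0.041 and 0.0079 against 0.0009 and 0.0012 over all genes. DESeq2 called 0 in cerebellum (2.22% of all genes) and 2 in cortex, both lower (2.74%, against 0.255%). Slc32a1, or VGAT, the vesicular transporter of inhibitory neurons, was at 110.1, 135 and 99.03 CPM in control cortices and 74.1 and 72.2 in KO cortices (log2 change -0.64, DESeq2 adjusted p = 0.0342). Syt6 was at 34.7, 67.6 and 34.2 CPM in controls and 21.9 and 20.3 in KO (log2 change -1.10, DESeq2 adjusted p = 0.0460). Both were highest in control 2, like the striatal genes given above, whose part in these values was not tested. The KO effect differed between the tissues for 0 of 73 by edgeR and for 1 by DESeq2 (1.37%, against 1.07%), Rab3b (difference 0.72, DESeq2 adjusted p = 0.0379), which was at 10.7, 10.6 and 11.8 CPM in control and 16.9 and 14.3 in KO cerebella, and at 46.9, 59.2 and 47.1 CPM in control and 43.2 and 42.8 in KO cortices. Between the tissues of the controls 34 of 73 were called (46.6%, against 40.9% of all genes), 13 higher (17.8%, against 19.2%) and 21 lower in cerebellum (28.8%, against 21.8%), with a median of -0.19.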

How the data were processed

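The authors deposited 1 table of raw counts per library, made from trimmed paired-end reads aligned with STAR to GRCm38 and counted over exons with featureCounts (Subread 2.0.1); per the file headers strand was not used and a pair overlapping several genes was counted for each. The 55536 mouse genes were kept and named by GENCODE M21; 26345 other entries held 0.160% to 0.926% of a library. Libraries were scaled by TMM, genes filtered with filterByExpr (minimum count 10), and compared in R 4.3.3 by edgeR 4.0.16 (quasi-likelihood fit), adjusting p over all genes by Benjamini and Hochberg: KO against control within a tissue, and tissue and interaction contrasts in 1 fit of 10 libraries. CPM printed use TMM factors over 10 libraries, which differ from those within a tissue by at most 0.0172 on the log2 scale. DESeq2 1.42.0, RLE scaling, no filter, a replicate block and leaving out each library or animal were alternatives. On simulated data edgeR recovered 97% of genes changed by 1 on the log2 scale among 19328 genes in cerebellum and 19174 in cortex. For the interaction it recovered 61% among 20043. The simulation gave all genes the same spread, changed only well-counted genes and had no library that stood apart. It scored adjusted p and direction without the fold threshold. It therefore does not show how many such changes edgeR finds in the real libraries, and in real cortex Snx14 itself was not called. P-values for KO against control rest on the spread between 2 or 3 mice per group, with information shared over genes. Counting error is a larger part of this spread for the lowest members (Cplx3, Stx1a). The tissue and interaction contrasts pool the spread of all groups in the 10 libraries. That fit has no animal term and so leaves out the pairing of tissues, which the fit with the animal as a block takes in. The labels number control and KO mice alike, but these are different animals (correlation of their deviations -0.0496 to 0.129); the tissues of an animal are paired by the animal numbers in the labels (0.198 to 0.420). Members and gene lists were chosen with earlier results of these data known. A log2 change with its test was printed for Doc2 and SV2 genes, for members with an unadjusted p under 0.05 or called by DESeq2, and, between tissues, for called members. The exonic length in the tables gave CPM per kb.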

Additional observations from a re-analysis of the deposited data

Results flagged for a closer look

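Syt3 and Syt11 lay on opposite sides of the controls in the 2 tissues, with both KO libraries above all controls in cerebellum and below all controls in cortex. Syt3 was at 37.98, 41.5 and 39.8 CPM in control and 43.5 and 43.2 in KO cerebella, and at 50.1, 56.8 and 54.8 in control and 50.02 and 45.8 in KO cortices; in cortex KO 1 and control 1 were nearly equal. Its KO effect was 0.292 higher in cerebellum than in cortex on the log2 scale, with an edgeR adjusted p of 0.514 (0.336 with the animal as a block). Syt11 was at 545, 587 and 519.5 CPM in control and 622 and 609.7 in KO cerebella, and at 871, 963 and 934 in control and 845 and 859.7 in KO cortices. Its difference was 0.275, with an adjusted p of 0.594 (0.400 with the block). Neither difference passed the test.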

How the results depend on the processing

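Groups of 2 or 3 mice set the limits, and in cortex the edgeR calls changed with control 2 and with the filter on low counts. The count of members called in KO cerebellum was 1 and was 2 by DESeq2, 3 with no filter (2.39% of all genes), and 1 to 2 when a library was left out (Doc2b in each, with Sv2c without KO 2 or control 2, and Slc17a6 without KO 1). In KO cortex it was 0 (0% of all genes), 3 by DESeq2 (0.255%) and 3 with no filter (1.09%). It was 3 without control 2 (0.517%) and 0 without control 1 or control 3 (0% in each). The count for the difference of KO effects was 0, and 4 with no filter (1.56%). Among other presynaptic genes the count of 0 in cerebellum became 1 with no filter (2.39% of all genes). In cortex it became 2 by DESeq2 (0.255%), 3 with no filter (1.09%) and 1 without control 2 (0.517%). For the difference it became 1 by DESeq2 (1.07%) and 3 with no filter (1.56%). RLE scaling changed none of these counts. Among the named KO changes and differences, reversals occurred in estimates that edgeR never called. When a library was left out, Sv2a in cerebellum ranged from -0.012 (without KO 1) to 0.131, Sv2b in cerebellum from -0.088 to 0.078 (above 0 without KO 2 and, at 0.015, without control 1), Sv2b in cortex from -0.048 (without control 2) to 0.126, Doc2a in cortex from -0.192 to 0.030 (above 0 without KO 1 and, at 0.023, without control 3; 0.022 with the replicate block), the Sv2b difference from -0.184 to 0.084 (above 0 without KO 2 and, at 0.023, without control 2) and the Sv2c difference from -0.439 to 0.401 (above 0 without KO 1, at 0.264 without control 1 and 0.074 without control 3). The cause was not tested. When a library was left out, the difference of the log2 ratio of Sv2c to Sv2a in cerebellum ranged from -1.29 to -0.64 and that of Sv2c to Sv2b from -1.23 to -0.57.

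With the replicate number as a block, 1 member was called in KO cerebellum (Doc2b, log2 change -0.75, adjusted p = 0.0300; 0.931% of all genes) and 0 in KO cortex (0.0156%); the numbers name different animals. With the animal as a block, 27 members were called between tissues in place of 26 (Slc17a6 added, adjusted p = 0.0343), and 0 for the difference of KO effects (0.621% of all genes).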
